A study of Mus musculus with 6 samples.

Results

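The genes followed here act in homologous recombination, in the Fanconi anemia pathway and in the DNA damage checkpoint, and their RNA was compared between WT-labelled and KO-labelled mouse hearts. The 44 genes were chosen by symbol from the 45792 genes of the deposited count table, with the symbols read from a second deposited table through the gene identifier. All 44 had a row in the count table, and 43 passed the filter on low counts and were tested. Whole hearts were taken at embryonic day 13.5 from 3 embryos labelled KO, of genotype Tie2Cre;Ino80 fl/fl, and from 3 embryos labelled WT. The study elsewhere counted any genotype other than Tie2Cre;Ino80 fl/fl as a control, and the labels do not say whether these WT-labelled embryos carried a floxed allele or the transgene. The labels give C57BL/6 for both groups, whereas the study's methods describe mixed backgrounds. Tie2Cre expresses Cre recombinase in endothelial and endocardial cells and removes a floxed exon of Ino80, the ATPase of a chromatin remodelling complex, in those cells and their descendants, so that a whole heart also holds RNA of cells outside the deletion. The comparison asks whether the RNA of these repair and checkpoint genes differed between such hearts.

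Homologous recombination repairs a broken or stalled DNA strand by copying the intact sister chromatid. Nucleases first trim the broken end, the BRCA proteins then load a recombinase onto the exposed single strand, and its partners help it to invade the sister and to resolve the joined molecules. The Fanconi anemia proteins recognise crosslinks between DNA strands, mark the FANCD2 and FANCI pair with ubiquitin and hand the lesion to recombination, while the kinases ATM and ATR and their targets hold the cell cycle until repair is done. These genes are used most by cells that copy their DNA, which are common in the growing embryonic heart.

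The 6 libraries held between 28948836 and 89675692 counts, and the deepest held 3.10 times the counts of the shallowest. Each tested member had between 153 and 13347 counts in a library. No 2 libraries matched within counting error (a chi-square test gave at least 19.0 for each degree of freedom), so each heart was counted as a replicate. The first principal component, with 45.1% of the variance, placed all WT-labelled hearts below 0 (-5.17, -28.2 and -18.3) and all KO-labelled hearts above 0 (25.1, 17.4 and 9.23), with WT replicate 1 the nearest to the other group. Ino80 itself was counted over the whole gene and in all cells, so its level does not check the deletion, and it stood at 30.2, 31.6 and 32.7 CPM (counts per M counts of the library, scaled by TMM for its composition) in WT-labelled and at 36.5, 33.7 and 31.8 CPM in KO-labelled hearts.

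In WT-labelled hearts the members' levels per length spanned from 1.01 to 61.2 CPM per kb of exon, with a median of 3.07. Of the 43, 33 lay between 1 and 5 CPM per kb and only 4 above 10. H2afx, the histone variant whose phosphorylation marks chromatin around a break, had the highest level, at 61.2 ± 2.63 CPM per kb (SD, n = 3). Below it came Nbn, a subunit of the complex that senses broken ends, at 16.1 ± 1.69, Topbp1, the activator of ATR, at 12.8 ± 0.097, and Mdc1, the scaffold that binds phosphorylated H2AX, at 11.1 ± 0.56 CPM per kb. The ranges of these 4 genes over the 3 hearts did not overlap with their neighbours in the order. Palb2, which joins BRCA1 to BRCA2, was the lowest at 1.01 ± 0.11 CPM per kb, next to the kinase Atr at 1.27 ± 0.073. In the whole order, 35 of the 42 neighbouring pairs had overlapping ranges, so that most of the order between neighbours did not exceed the spread between hearts. The order also depends on the length used, that of all annotated exons of a gene merged. This length was 23629 bases for Atr and 10338 for the kinase Atm. In WT-labelled hearts Atr stood at 31.9, 29.5 and 28.6 CPM and Atm at 21.7, 21.3 and 24.4 CPM. Per kb, Atr was nonetheless below Atm, at 1.27 beside 2.17 CPM per kb.

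**Figure D1:**
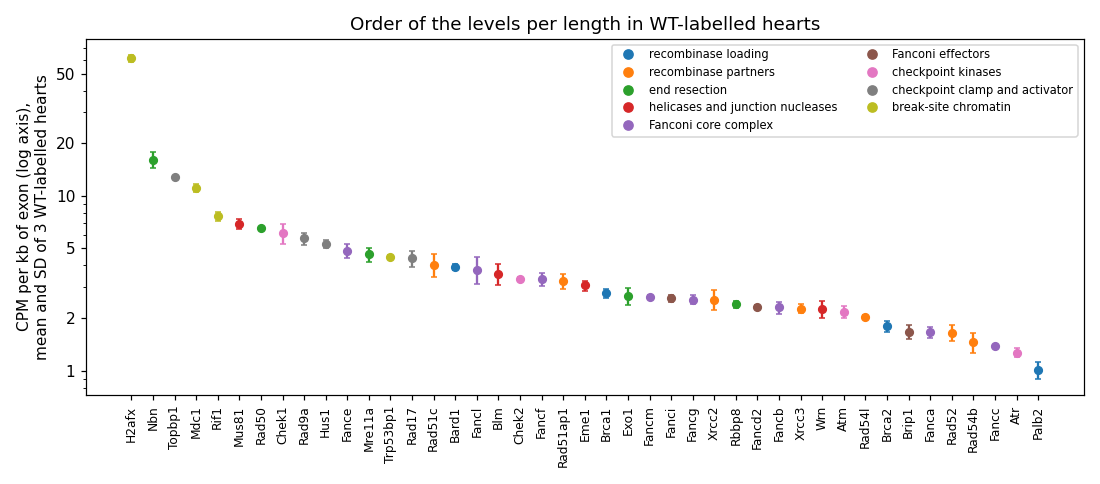
Level of each of the 43 tested members in WT-labelled hearts, in CPM per kb of exon on a log axis, ordered from highest to lowest and coloured by role. Points are means and bars the SD of 3 hearts, from H2afx at 61.2 to Palb2 at 1.01 CPM per kb.

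No member was called different between the groups after adjustment for all genes. With edgeR's quasi-likelihood test and Benjamini-Hochberg adjustment, 0 members passed an adjusted p of 0.05 in either direction, as did 0% of the 17125 tested genes, and the smallest adjusted p of a member was 0.1496, for Eme1. At an unadjusted p under 0.05, 9 members were higher in KO-labelled hearts (20.9% of the 43, beside 9.48% of all tested genes) and 0 were lower (beside 9.98%). The 9 were Xrcc3, Eme1, Fanca, H2afx, Exo1, Rad54l, Fancm, Trp53bp1 and Mdc1, with fold changes between 1.14 and 1.29, and their adjusted p reached 0.253. DESeq2 was run on all genes with any count and under its own filter, so its gene set was not that of edgeR. It also called 0 members in either direction at an adjusted p under 0.05. Of the 17125 genes tested in edgeR, it called 2.55% higher and 3.21% lower.

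By the values of the hearts alone, 10 members had all 3 KO-labelled hearts above all 3 WT-labelled hearts (23.3%, beside 14.3% of all tested genes), and 0 had them all below (beside 12.8%). These 10 were the same 9 genes and Mre11a. Fold changes were above 1 for 26 of the 43 members (60.5%, beside 49.7% of all tested genes). The median log2 fold change of the members was 0.033, a fold of 1.02, beside a median of -0.0017 over all tested genes. With a heart left out it ranged from 0.015 (without WT replicate 3) to 0.074 (without KO replicate 1). Outside the 9 genes, the other 34 members were evenly split, with 17 above and 17 below 0 and log2 fold changes from -0.15 to 0.24. The 95% intervals of the fold changes of all 43 members lay between 0.743 and 1.54, within a 1.5-fold change either way for 42 of them and within a 1.25-fold change for 20.

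**Figure D2:**
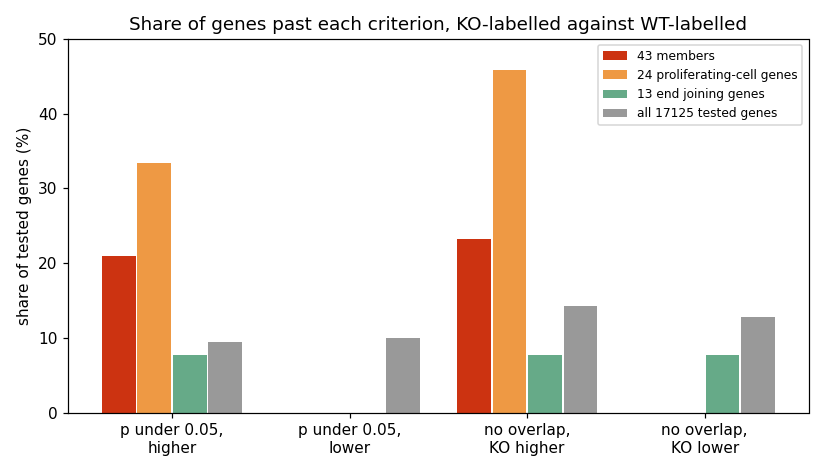
Share (%) of genes past each criterion in KO-labelled against WT-labelled hearts, for the 43 members, 24 genes of proliferating cells, 13 end joining genes and all 17125 tested genes. No bar stands for 0%: no member was lower by either criterion, while 20.9% were higher by unadjusted p and 23.3% by groups that did not overlap.

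**Figure D3:**
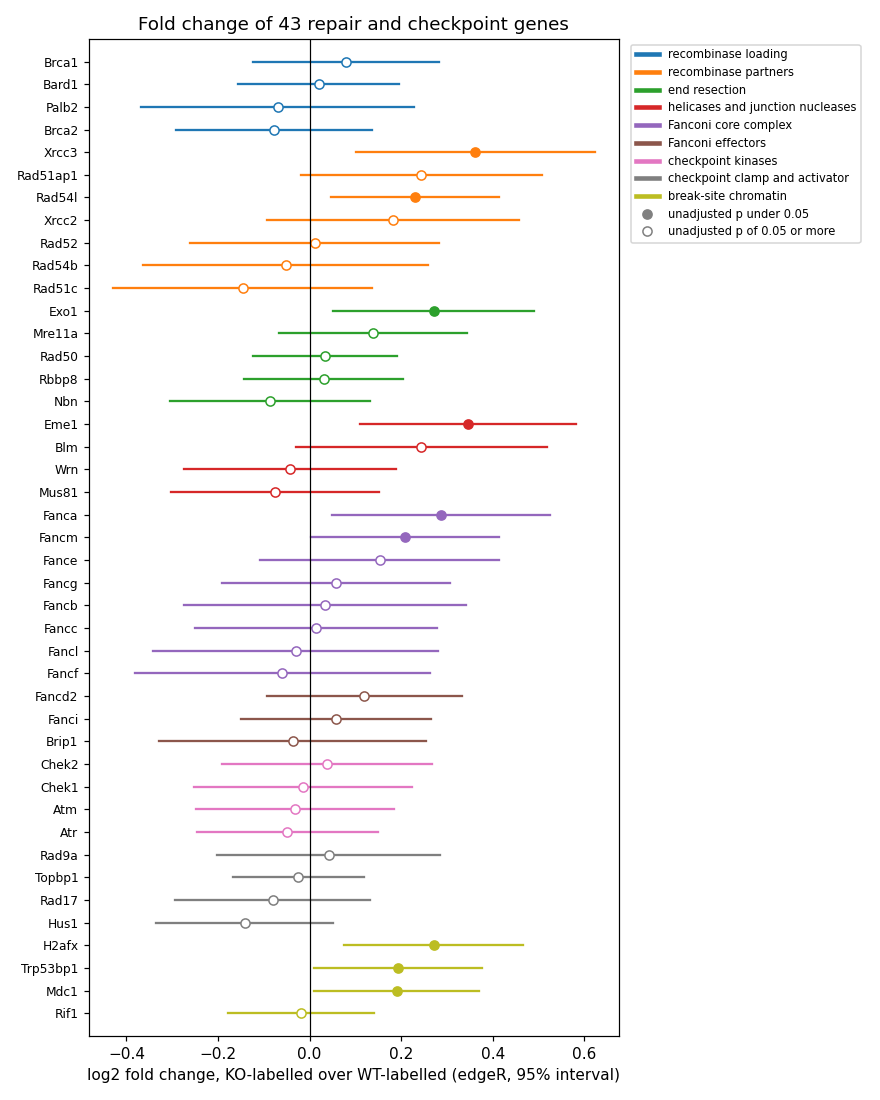
Log2 fold change of each tested member, KO-labelled over WT-labelled (edgeR), grouped and coloured by role. Lines are 95% intervals and filled points mark an unadjusted p under 0.05, which 9 members reached, all to the right of 0.

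The genes that respond at the chromatin of a break held 3 of the 9. H2afx stood at 84.1, 81.5 and 88.6 CPM in WT-labelled and at 93.2, 100.5 and 113 CPM in KO-labelled hearts. All KO-labelled values were above all WT-labelled ones, and KO replicate 3 was the highest. Its log2 fold change was 0.27 ± 0.08 (SE), with an edgeR unadjusted p of 0.0124 and a Benjamini-Hochberg adjusted p of 0.162. Trp53bp1, which encodes 53BP1, a protein that shields broken ends from trimming, stood at 61.6, 64.4 and 64.0 CPM in WT-labelled and at 79.7, 67.7 and 69.6 CPM in KO-labelled hearts. Mdc1 stood at 87.4, 79.5 and 81.2 CPM in WT-labelled and at 102.8, 90.9 and 89.2 CPM in KO-labelled hearts. In both genes KO replicate 1 was well above the other 2 KO-labelled hearts, which lay just above the WT-labelled range. Their log2 fold changes were 0.19 ± 0.08 each (SE), with edgeR adjusted p of 0.240 for Trp53bp1 and 0.239 for Mdc1, and without KO replicate 1 they fell to 0.12 for both and neither passed an unadjusted p of 0.05. The fourth gene of this group, Rif1, the effector of 53BP1, had a log2 fold change of -0.02 and overlapping groups. The mean of log2(CPM + 1) over the 4 genes was 6.30, 6.29 and 6.28 in WT-labelled and 6.49, 6.41 and 6.43 in KO-labelled hearts.

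Among the partners of the recombinase, Xrcc3 and Rad54l were higher at the unadjusted threshold. Xrcc3, a paralog of the recombinase that works with RAD51C, had the largest fold change of all members. It stood at 6.25, 6.57 and 5.83 CPM in WT-labelled and at 7.73, 8.16 and 8.10 CPM in KO-labelled hearts, from 189 to 715 counts. The lowest KO-labelled heart was thus above the highest WT-labelled heart, and the log2 fold change was 0.36 ± 0.11 (SE; fold 1.29, 95% interval 1.07 to 1.54; edgeR adjusted p = 0.162, Benjamini-Hochberg). Rad54l, a motor protein that helps the recombinase to invade the sister strand, stood at 15.9, 15.8 and 15.4 CPM in WT-labelled and at 18.6, 18.9 and 17.9 CPM in KO-labelled hearts. Both groups were tight and apart, and its log2 fold change was 0.23 ± 0.08 (SE; edgeR adjusted p = 0.186). The other 5 partners overlapped between the groups. Rad51ap1, an accessory protein of the recombinase, had a log2 fold change of 0.24 (95% interval -0.02 to 0.51), the paralog Xrcc2 of 0.18, the annealing factor Rad52 of 0.01, the second motor protein Rad54b of -0.05 and the paralog Rad51c of -0.15 (95% interval -0.43 to 0.14). The difference between Xrcc3 and its partner Rad51c was not tested.

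The start of Xrcc3 is shown because it had the largest fold change of the members, and the letters were searched after that value was known. Its 250 bases before the start site, from RefSeq on GRCm38.p6 (chr12:111813880-111814129, minus strand), held the CCAAT word or its reverse complement 6 times, 4 of them forward and 2 reverse, between 237 and 27 bases before the start. As many matches in the promoter window of 300 bases were held by 18 of the 11080 tested genes with a window (0.162%). In the sequence, written from 5′ to 3′ on the gene's strand, capitals mark the matches, and a reverse and a forward word stand side by side in the run of 10 capitals.
Xrcc3: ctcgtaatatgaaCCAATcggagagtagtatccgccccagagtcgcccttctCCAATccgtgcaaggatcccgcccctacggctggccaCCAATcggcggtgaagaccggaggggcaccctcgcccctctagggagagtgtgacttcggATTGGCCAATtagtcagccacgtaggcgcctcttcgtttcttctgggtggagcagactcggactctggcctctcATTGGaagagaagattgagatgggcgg
CCAAT is the word bound by the factor NF-Y, and a match in letters is a description, not a binding site. Of the 33 members with a window, 18 held at least 1 CCAAT word (54.5%), beside 42.4% of the tested genes with a window. Among the rest of the 9 genes, Fanca held 2 such words, Rad54l, Fancm and Mdc1 held 1, and Eme1 and Trp53bp1 held 0. Exo1 and H2afx had no window. Whether fold changes go with CCAAT words was not tested.

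The helicases and junction nucleases included the other of the largest changes. Eme1, which with MUS81 forms a nuclease that cuts joined DNA molecules, stood at 9.12, 8.31 and 8.03 CPM in WT-labelled and at 10.9, 10.7 and 10.8 CPM in KO-labelled hearts. The 3 KO-labelled hearts lay close together and above every WT-labelled heart, with a log2 fold change of 0.35 ± 0.10 (SE; fold 1.27, 95% interval 1.08 to 1.496; edgeR adjusted p = 0.1496, Benjamini-Hochberg). Mus81, its partner, had a log2 fold change of -0.08 with overlapping groups. Blm, the helicase lost in Bloom syndrome, had a log2 fold change of 0.24 (95% interval -0.03 to 0.52), and Wrn, the helicase lost in Werner syndrome, of -0.04.

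Of the 5 genes that trim broken ends, Exo1 was higher at the unadjusted threshold. This exonuclease stood at 25.3, 21.0 and 21.2 CPM in WT-labelled and at 27.4, 27.9 and 26.01 CPM in KO-labelled hearts. The groups did not overlap, but WT replicate 1 came within 1 CPM of the lowest KO-labelled heart, and the log2 fold change was 0.27 ± 0.10 (SE; edgeR adjusted p = 0.189, Benjamini-Hochberg). Mre11a, Rad50 and Nbn encode the complex that first binds a broken end. Mre11a stood at 28.6, 29.0 and 24.5 CPM in WT-labelled and at 30.3, 31.1 and 29.02 CPM in KO-labelled hearts, where the highest WT-labelled and the lowest KO-labelled heart nearly touched, and its log2 fold change of 0.14 had an edgeR unadjusted p of 0.159. Rad50 had a log2 fold change of 0.03 and Nbn of -0.09, with overlapping groups. Rbbp8, which encodes the resection factor CtIP, had a log2 fold change of 0.03.

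The 4 genes that load the recombinase were near 0. Brca1, a ubiquitin ligase that directs repair to recombination, stood at 23.7, 22.3 and 25.1 CPM in WT-labelled and at 25.1, 26.7 and 23.2 CPM in KO-labelled hearts. Brca2, which places the recombinase on single-stranded DNA, stood at 24.1, 22.9 and 26.3 CPM in WT-labelled and at 25.1, 22.6 and 21.6 CPM in KO-labelled hearts. The groups overlapped for both genes. The 95% interval of the fold change ran from 0.918 to 1.22 for Brca1 (log2 fold change 0.08) and from 0.816 to 1.10 for Brca2 (log2 fold change -0.08). With a heart left out, the log2 fold change ranged from 0.03 to 0.13 for Brca1 and from -0.14 to -0.02 for Brca2. Bard1, the partner of BRCA1, had a log2 fold change of 0.02 and Palb2 of -0.07.

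Of the 8 genes of the Fanconi core complex, which ubiquitinates FANCD2 and FANCI, Fanca and Fancm were higher at the unadjusted threshold. Fanca, a scaffold subunit, stood at 15.1, 13.3 and 15.03 CPM in WT-labelled and at 19.4, 16.6 and 16.9 CPM in KO-labelled hearts. Fancm, the translocase that anchors the complex on DNA, stood at 26.7, 28.4 and 27.6 CPM in WT-labelled and at 35.2, 30.3 and 29.8 CPM in KO-labelled hearts. KO replicate 1 was the highest heart for both genes, and for Fancm the other 2 KO-labelled hearts lay close to the WT-labelled range. The log2 fold change was 0.29 ± 0.10 for Fanca and 0.21 ± 0.09 for Fancm (SE), with edgeR adjusted p of 0.194 and 0.253 (Benjamini-Hochberg). Without KO replicate 1 they were 0.21 and 0.13, and neither passed an unadjusted p of 0.05. The other 6 core genes overlapped between the groups, with log2 fold changes of 0.15 for Fance, 0.06 for Fancg, 0.03 for Fancb, 0.01 for Fancc, -0.03 for the ubiquitin ligase Fancl and -0.06 for Fancf.

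The 3 downstream Fanconi genes did not pass the unadjusted threshold. Fancd2 stood at 18.4, 18.9 and 18.1 CPM in WT-labelled and at 20.5, 18.0 and 21.6 CPM in KO-labelled hearts. Fanci, its partner in the clamp on DNA, stood at 15.8, 14.5 and 14.6 CPM in WT-labelled and at 15.3, 15.1 and 16.5 CPM in KO-labelled hearts. For Fancd2, KO-labelled hearts 1 and 3 were above the WT-labelled range and KO replicate 2 below it, and for Fanci the ranges were interleaved. The 95% intervals of the fold changes were 0.937 to 1.26 for Fancd2 and 0.902 to 1.202 for Fanci. Brip1, a helicase that binds BRCA1, had a log2 fold change of -0.04.

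None of the 8 tested checkpoint genes passed the unadjusted threshold in edgeR. Atm, the kinase that answers broken ends, stood at 21.7, 21.3 and 24.4 CPM in WT-labelled and at 23.8, 21.0 and 20.9 CPM in KO-labelled hearts. Atr, the kinase that answers exposed single strands, stood at 31.9, 29.5 and 28.6 CPM in WT-labelled and at 31.0, 29.1 and 26.9 CPM in KO-labelled hearts. The groups overlapped for both kinases, with fold intervals of 0.842 to 1.135 for Atm and 0.843 to 1.11 for Atr. Chek1, the target kinase of ATR, stood at 28.2, 32.1 and 24.7 CPM in WT-labelled and at 28.4, 28.3 and 27.3 CPM in KO-labelled hearts. Chek2, the target kinase of ATM, stood at 10.1, 9.87 and 10.2 CPM in WT-labelled and at 9.81, 11.0 and 10.3 CPM in KO-labelled hearts. The 3 KO-labelled hearts lay within the WT-labelled range for Chek1. For Chek2, KO replicate 1 lay below the WT-labelled range and KO replicates 2 and 3 above it. The fold intervals were 0.840 to 1.17 for Chek1 and 0.876 to 1.203 for Chek2, and changes smaller than these bounds could not be resolved with 3 hearts a group. Atrip, the partner of ATR, was not tested, with 13, 2 and 1 counts in WT-labelled and 13, 1 and 4 counts in KO-labelled hearts, and 16.0% of its exon bases are shared with Trex1 on the same strand. The clamp subunits Rad9a and Hus1, the clamp loader Rad17 and Topbp1 had log2 fold changes of 0.04, -0.14, -0.08 and -0.02, all with overlapping groups.

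**Figure D4:**
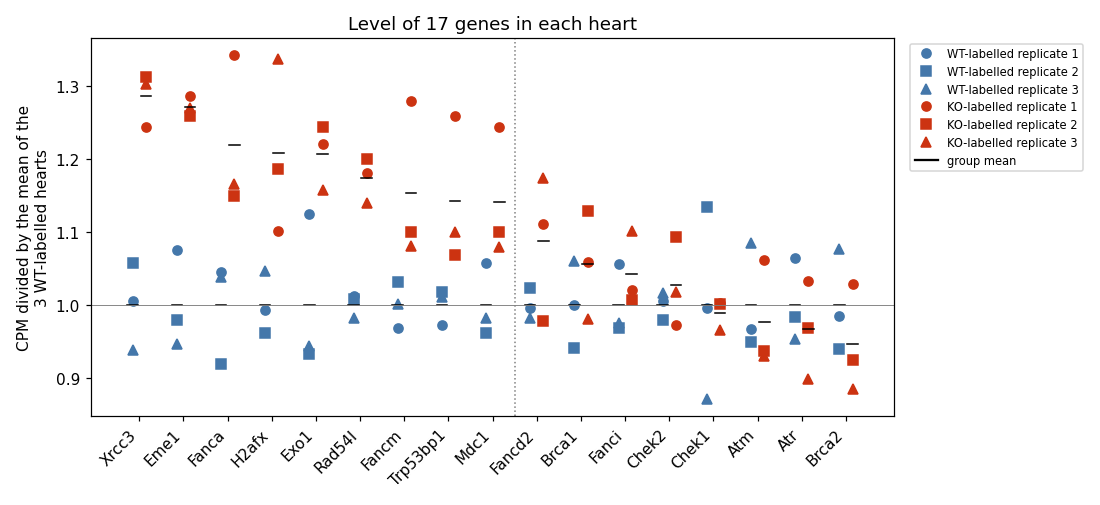
CPM of 17 members in each heart, divided by the mean of the 3 WT-labelled hearts. Left of the dotted line are the 9 genes at an edgeR unadjusted p under 0.05. To the right are 8 of the genes to be given whatever their result, of which H2afx and Trp53bp1 stand on the left. Bars are group means. The KO-labelled hearts lie above all WT-labelled hearts for each gene on the left and for none on the right. The genes were sorted by these same values, so this contrast is no separate result.

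In 19 of the 43 members the lowest of the 6 hearts was WT replicate 3, and in 31 it was a WT-labelled heart. The same was not counted over all tested genes, so these counts cannot be read as a trait of the members. The mean of log2(CPM + 1) over the 43 members was 4.44, 4.46 and 4.37 in WT-labelled and 4.49, 4.49 and 4.48 in KO-labelled hearts, so WT replicate 3 was the lowest and the KO-labelled hearts lay within 0.01 of each other. WT replicate 3 also had the highest summed level of 7 erythroid marker genes, at 39223 CPM beside 8805 and 17081 CPM in the other 2 WT-labelled hearts and 5550, 6265 and 10202 CPM in the KO-labelled hearts. In bulk tissue, fewer cells of a type and less RNA per cell cannot be told apart. Of the 8 erythroid markers listed, 7 were tested, and 5 of these were lower at an edgeR unadjusted p under 0.05 (71.4%, beside 9.98% of all tested genes). Only 1 had all KO-labelled hearts below all WT-labelled hearts (14.3%, beside 12.8%). DESeq2 called 0 of them lower at an adjusted p under 0.05 (beside 3.21%). The part of blood cells in the members' values was not tested. Without WT replicate 3, 5 members passed an unadjusted p of 0.05 in place of 9 (Rad54l, Xrcc3, Fanca, H2afx and Eme1), beside 8.44% of all tested genes. Without KO replicate 1, 3 did so (Xrcc3, H2afx and Eme1), beside 6.93%, and without KO replicate 2, 5 did so, beside 6.76%. Xrcc3, H2afx and Eme1 passed that threshold whichever single heart was left out.

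The other marker lists held 6 to 8 genes each. Over all tested genes, 9.48% were higher and 9.98% lower at the unadjusted threshold of 0.05. Endothelial markers summed to between 829 and 1039 CPM in WT-labelled and between 927 and 979 CPM in KO-labelled hearts, with 0 of 8 higher and 1 lower at the unadjusted threshold of 0.05. Cardiomyocyte markers summed to between 15812 and 20218 CPM in WT-labelled and between 16254 and 17282 CPM in KO-labelled hearts, with 2 of 8 higher and 1 lower. Among the rest, 1 of 6 macrophage and 1 of 6 epicardial markers were higher and 1 of each list lower, 0 of 6 mesenchymal markers were higher and 2 lower, and the 2 liver markers tested passed in neither direction, at summed levels of 0.443 to 1.204 CPM. The labelled tissue thus carried its cardiomyocyte and endothelial markers in all 6 hearts.

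Reads of a neighbouring gene could enter some members. In the GENCODE vM21 annotation of GRCm38, 21 of the 44 members share no exon base with another gene. Another 11 share at least 10% of theirs, up to 35.9% for Rad54b, with Fsbp on the same strand and Gm11832 on the opposite strand. Of the 9 genes, Exo1 and Mdc1 share none, while 5 share at least 10%, each with a gene on the opposite strand. These were Rad54l (15.4%, with Lrrc41), Trp53bp1 (15.04%, with Tubgcp4), Eme1 (10.7%, with Lrrc59 and Mrpl27), Fanca (10.5%, with Zfp276) and H2afx (10.2%, with the miRNA gene Gm44335). Whether the counting used strand, and how it treated overlapping genes, is not given in the sources used here, so values of these genes are uncertain to that extent.

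Many repair genes carry words for E2F, the factors that switch on genes for DNA replication, close to their start. RefSeq promoter windows on GRCm38.p6, of 250 bases before and 50 after the start, were matched for 33 of the 44 members. The words TTTCCCGC, TTTGGCGC, TTTCGCGC and TTTGCCGC, searched on both strands, were present in the windows of 7 of the 33 (21.2%), which were Brca2, Bard1, Rad51c, Chek2, Topbp1, Fancg and Mdc1. Of the 11080 tested genes with a window, 499 held such a word (4.50%). The stretches of 60 bases around the word are shown for the 6 members whose match lies before the start, since of the 3 kinds of word searched this was the one whose share among members lay farthest from that among tested genes. They are written from 5′ to 3′ on the gene's strand, with the match in capitals.
Brca2 (chr5:150522427-150522486, plus strand, match beginning at -168 from the start): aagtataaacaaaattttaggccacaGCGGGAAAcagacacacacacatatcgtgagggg
Bard1 (chr1:71103148-71103207, minus strand, -209): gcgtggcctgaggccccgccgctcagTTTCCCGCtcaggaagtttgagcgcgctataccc
Chek2 (chr5:110839805-110839864, plus strand, -152): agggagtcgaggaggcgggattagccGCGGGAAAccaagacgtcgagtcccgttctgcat
Topbp1 (chr9:103305172-103305231, plus strand, -129): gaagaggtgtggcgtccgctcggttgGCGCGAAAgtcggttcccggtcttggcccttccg
Fancg (chr4:43010320-43010379, minus strand, -52): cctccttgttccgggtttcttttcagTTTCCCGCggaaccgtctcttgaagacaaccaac
Mdc1 (chr17:35841438-35841497, plus strand, -16): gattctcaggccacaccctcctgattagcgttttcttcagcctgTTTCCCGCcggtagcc

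The 7 members with such a word had a median log2 fold change of 0.02, and 1 of them, Mdc1, was higher at an unadjusted p under 0.05. The 25 tested members whose window held no such word had a median of 0.03 with 6 higher. The 11 members without a window had a median of 0.03 with 2 higher. Over all tested genes, 9.48% were higher at that threshold. The word TTTGAA, known as the cell cycle homology region, was in the windows of 3 of 33 members (9.09%), beside 14.2% of the tested genes with a window. A match in letters is no evidence that a factor bound there, and its absence concerns only this window.

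Related lists were counted in the same way and in the same fit, where 9.48% of all tested genes were higher and 9.98% lower. Of 39 further genes of recombination, the Fanconi pathway and the checkpoint, all tested, 8 were higher at an unadjusted p under 0.05 (20.5%) and 0 lower, with a median log2 fold change of 0.03. The smallest p in each direction belonged to Wdhd1, a replication fork protein, at 0.33, and Cdc25a, the phosphatase that the checkpoint degrades, at 0.25, and to Rmi1, a partner of BLM, at -0.14 and Uimc1, which brings BRCA1 to ubiquitin at breaks, at -0.10, of which the last 2 did not pass that threshold. Of 13 end joining genes, which seal breaks without a template, 1 was higher (Polm, a polymerase, log2 fold change 0.37) and 0 lower, and Xrcc4, a ligase cofactor, had a value of -0.22 with an edgeR unadjusted p of 0.0563. The polymerase Poll, at 0.17, and the end-cleaning enzyme Tdp2, at -0.09, did not pass either. Of 36 genes of excision and mismatch repair, 7 were higher (19.4%) and 0 lower with a median of 0.14. The smallest p belonged to Ercc2, a helicase of transcription factor TFIIH, with a log2 fold change of 0.78, and Tdg, a DNA glycosylase, with 0.56. On the other side, the nuclease Ercc5 at -0.15 and Ercc8, which acts on stalled transcription, at -0.12 did not pass that threshold. DESeq2 called 2 genes of this list higher at an adjusted p under 0.05, beside 2.55% of all tested genes.

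Many of the members are known to be expressed mostly in dividing cells. Of 24 other genes of proliferating cells, 8 were higher at an unadjusted p under 0.05 (33.3%) and 0 lower, beside 9.48% and 9.98% of all tested genes. The median log2 fold change of the 24 was 0.13. DESeq2 called 4 of them higher at an adjusted p under 0.05, beside 2.55% of all tested genes. Plk1, a mitotic kinase, had a value of 0.36 and Mcm2, a subunit of the replicative helicase, of 0.32, while Pcna, the replication clamp, had -0.08 and Bub1, a spindle checkpoint kinase, -0.05, both with overlapping groups. Their mean of log2(CPM + 1) was 6.63, 6.59 and 6.54 in WT-labelled and 6.69, 6.74 and 6.76 in KO-labelled hearts, a difference of 0.14 beside 0.063 for the members. The part of cycling cells in the members' values was not tested. Of 18 target genes of p53, the factor that the checkpoint kinases activate, 0 were higher and 4 lower at the unadjusted threshold (22.2%, beside 9.98%). Their median log2 fold change was -0.15. DESeq2 called 3 of them lower at an adjusted p under 0.05, beside 3.21% of all tested genes. The mean of log2(CPM + 1) over the 18 genes was 4.65, 4.39 and 4.68 in WT-labelled and 4.37, 4.43 and 4.41 in KO-labelled hearts, with WT replicate 2 inside the KO-labelled range. The death effector Bax, at 0.11, and the stress protein Sesn2, at 0.15, had overlapping groups. Cdkn1a, the cell cycle inhibitor p21, stood at 32.7, 28.3 and 44.0 CPM in WT-labelled and at 19.8, 23.4 and 22.7 CPM in KO-labelled hearts, and Ccng1, cyclin G1, at 275.6, 297.3 and 260.7 CPM and at 187.9, 203.5 and 187.7 CPM. Every KO-labelled heart was below every WT-labelled heart for both genes, with log2 fold changes of -0.67 ± 0.16 and -0.53 ± 0.08 (SE) and edgeR adjusted p of 0.1002 and 0.0645 (Benjamini-Hochberg).

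**Figure D5:**
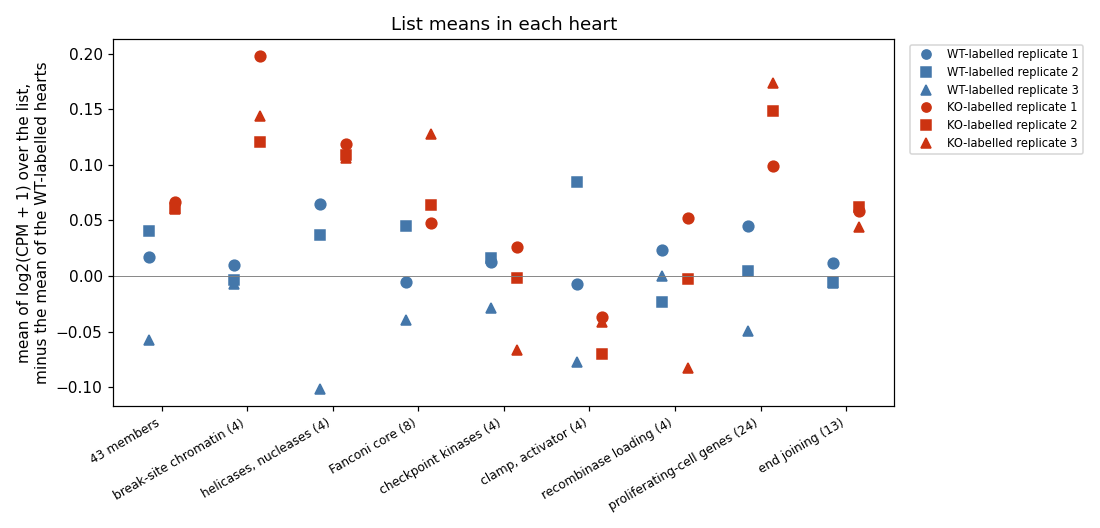
Mean of log2(CPM + 1) over each list in each heart, as a difference from the mean of the 3 WT-labelled hearts, with the number of genes in parentheses. The break-site chromatin genes lie between 0.12 and 0.20 above it in the KO-labelled hearts and the 43 members between 0.060 and 0.067, while the checkpoint kinases spread around 0.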

How the data were processed

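The authors sequenced RNA of whole hearts as paired-end reads, mapped them with STAR 2.4.2a to GRCm38/mm10 with GENCODE vM6, and deposited raw counts per gene from summarizeOverlaps. From the authors' deposited comparison only gene symbols were used, and its fold changes and p-values were not. Counts were filtered with filterByExpr (minimum count 10, minimum total 15), scaled by TMM and tested with edgeR 4.0.16 (R 4.3.3; quasi-likelihood, condition as the only term, Benjamini-Hochberg adjustment, threshold 0.05), leaving 17125 genes. The biological coefficient of variation was 0.15. The SE is the size of the log2 fold change over the square root of F. Levels per length used merged exons of GENCODE vM21. Alternatives were DESeq2 1.42.0, RLE factors, 2 other filters, thinning to the smallest total, omitting single hearts and the replicate number as a block. Steps were tested on simulated counts. Members and lists were chosen with earlier results of these data known. Values in every heart are given for members at an unadjusted p under 0.05 and for Brca1, Brca2, Atm, Atr, Chek1, Chek2, Fancd2, Fanci, Trp53bp1 and H2afx, and from the repair, proliferation and p53 lists the 2 genes with the smallest p in each direction are named, while cell type markers are given as counts and sums. Mre11a, Cdkn1a and Ccng1 were given in each heart after their values were seen. The labels name no batch, and the study describes the hearts as individual embryos.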

Additional observations from a re-analysis of the deposited data

How the results depend on the processing

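No member passed an adjusted p of 0.05 under any alternative run, and no member was lower at an unadjusted p under 0.05. The 9 members kept a log2 fold change above 0 in every setting. Members higher at an unadjusted p under 0.05 are given with the share of all genes that were higher in the same setting in parentheses. They numbered 8 with RLE factors (9.11%), 11 without the filter (7.08%) and 9 with a filter of 1 CPM in 3 libraries (10.2%). Thinning gave 9 (9.43%), the replicate block 8 (9.71%) and DESeq2 6 (5.29%). Without the filter and with DESeq2, the shares are over 28298 and 28291 genes, and 44 members were tested. The genes added there have low counts, so these shares are not like the 9.48% of 17125 genes in the main fit. With a heart left out, members higher at that threshold ranged from 3 of 43 without KO replicate 1 (6.93%) to 10 of 43 without KO replicate 3 (7.73%). Members higher without overlap of the groups numbered 10 after thinning and 9 to 15 with a heart left out. Members lower without overlap numbered 1 after thinning and 0 to 4 with a heart left out. The shares over all tested genes were 14.3% higher and 12.8% lower in the main fit and were not counted in these settings. Groups of fewer hearts separate more easily, so the main shares are no background for the counts with a heart left out. Genes past an adjusted p of 0.05 among all genes, 0 in both directions in edgeR as reported, were 262 higher and 341 lower without the filter, 436 and 564 with DESeq2 under its own filter, and 1 and 13 with the replicate block. They ranged from 0 to 320 higher and from 0 to 431 lower with a heart left out, the most without WT replicate 1. Same-numbered hearts did not deviate together (correlations of 0.024, -0.084 and -0.073), and the other pairings ranged from -0.076 to 0.136. Such correlations, from 3 hearts a group, cannot decide whether hearts were paired. The study states that its controls were litter mates, but the labels name no litter. The block is therefore given only as a setting. The log2 fold changes of the checkpoint kinases, all near 0, changed sign. Chek1 was 0.0094 after thinning. With a heart left out, Atm ranged from -0.098 to 0.031 (0.0057 without KO replicate 3), Atr from -0.099 to 0.0059, Chek1 from -0.10 to 0.086 and Chek2 from -0.0090 to 0.078. The cause of these changes was not tested. With 3 hearts a group the precision is limited, and the parts of counting error and of spread between hearts were not separated for single genes.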
